A study of Mus musculus with 5 samples.

Results

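The genes described here are the nuclear-encoded genes of the mitochondrial respiratory chain and ATP synthase. They were chosen by symbol: every gene whose name starts with Ndufa, Ndufb, Ndufc, Ndufs, Ndufv, Sdh, Uqcr, Cox4, Cox5, Cox6, Cox7, Cox8 or Atp5, without pseudogenes marked -ps. This gave 97 of the 27726 genes common to the 5 deposited matrices. Structural subunits made up 82 of them: 36 of complex I, 4 of complex II, 8 of complex III, 19 of complex IV and 15 of complex V. *Ndufa4* and *Ndufa4l2* were placed in complex IV, since the NDUFA4 protein belongs to cytochrome c oxidase. The other genes were 8 assembly factors of complex I (*Ndufaf1* to *Ndufaf8*), 4 of complex II (*Sdhaf1* to *Sdhaf4*), and *Cox7a2l*, *Atp5s* and *Atp5sl*. These last genes are caught by the prefixes and were not counted as structural subunits of a complex.

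Lung type 2 innate lymphoid cells (ILC2s) of wild-type C57BL/6 female mice aged 4 to 8 weeks were measured in 5 libraries. The method was 10x Genomics 3' single-cell RNA sequencing. The study pooled 5 mice per group and does not state the number of mice in each library. The naïve library held fresh cells from mice without tumour. The ta-non-activated libraries (tumour-associated) held fresh lung cells from mice that carried a TC1 tumour under the skin of the flank, 1 library in week 2 and 1 in week 3 of tumour growth. The ta-activated libraries, again 1 for week 2 and 1 for week 3, held cells of such mice after 7 days of culture with IL-2, IL-33 and TSLP. No library held naïve cells after culture or fresh cells kept in medium without cytokines, so culture and cytokines cannot be told apart.

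Complexes I to IV pass electrons from NADH and succinate to oxygen and, except for complex II, pump protons across the inner mitochondrial membrane. Complex V, the ATP synthase, uses the proton gradient to make ATP. Most subunits are encoded in the nucleus and imported, and 13 come from the mitochondrial genome, so that complexes I, III, IV and V are built from both sources. Complex II is wholly nuclear-encoded and is also an enzyme of the tricarboxylic acid (TCA) cycle. Lymphocytes that leave rest and divide are known to enlarge their mitochondrial mass and their glycolysis together, and ILC2s are known to draw on fatty acids for oxidation in tissue.

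After removal of barcodes in which fewer than 200 genes were seen or 5% or more of UMIs were mitochondrial, 1601 to 6389 cells a library remained, with medians of 4396 to 16090 UMIs (unique molecular identifiers, each standing for 1 captured transcript). The 10 ILC2 marker genes (*Gata3*, *Il1rl1*, *Rora* and others) were all detected in every library. No doublet caller was run, and doublet removal is not given in the sources used here. A cell was called ILC2-gated when its ILC2 marker UMIs exceeded its UMIs of markers of other cells. Such cells made up 97.6% to 99.4% of kept cells in 4 libraries and 44.5% (713 cells) in the week 3 ta-non-activated library. In that library 871 cells outside the gate carried at least 2 UMIs of T cell or thymocyte markers such as *Cd3e*, *Rag1* and *Ptcra*, all 11 of these markers were detected, and their summed level was 2559 CPM against 90.5 CPM in its gated cells and 5.06 to 171 CPM in the other 4 libraries, where *Rag1* and *Rag2* were at 0. The summed ILC2 markers were at 1451 CPM in that library (5616 gated) and at 8104 to 11526 CPM in the others. Week 3 ta-non-activated values are therefore given for kept and for gated cells. Between 1 and 8 cell barcodes were shared by any 2 libraries.

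Levels are in CPM, the UMIs of a gene or a sum of genes in every 1000000 UMIs of the summed cells. They are shares of a library, so less RNA of these genes and more RNA of others cannot be told apart. In 3' data each UMI stands for a transcript whatever its length, so levels of different genes were not scaled to length. Ratios to the naïve library did move with intron length, as given below. Exact Poisson 95% intervals cover counting error only. For the sum of all 97 genes they were narrow, 14229.5 to 14312 CPM in the naïve library, and differences between mice are not part of them.

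Together the 97 genes took 14271 CPM in the naïve library. Their sum was 31474 CPM in week 2 and 26815 CPM in week 3 ta-non-activated cells, and 23646 CPM in week 2 and 23365 CPM in week 3 ta-activated cells. In the gated cells of the fresh week 3 library the sum was 20797 CPM. The naïve library was thus the lowest and the week 2 ta-non-activated library the highest, at 2.21 times the naïve level, and the ta-activated libraries lay close to each other between these. Outside the gate, the 871 T-marker cells of week 3 held 28609 CPM, above the gated cells of their own library.

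**Figure D1:**
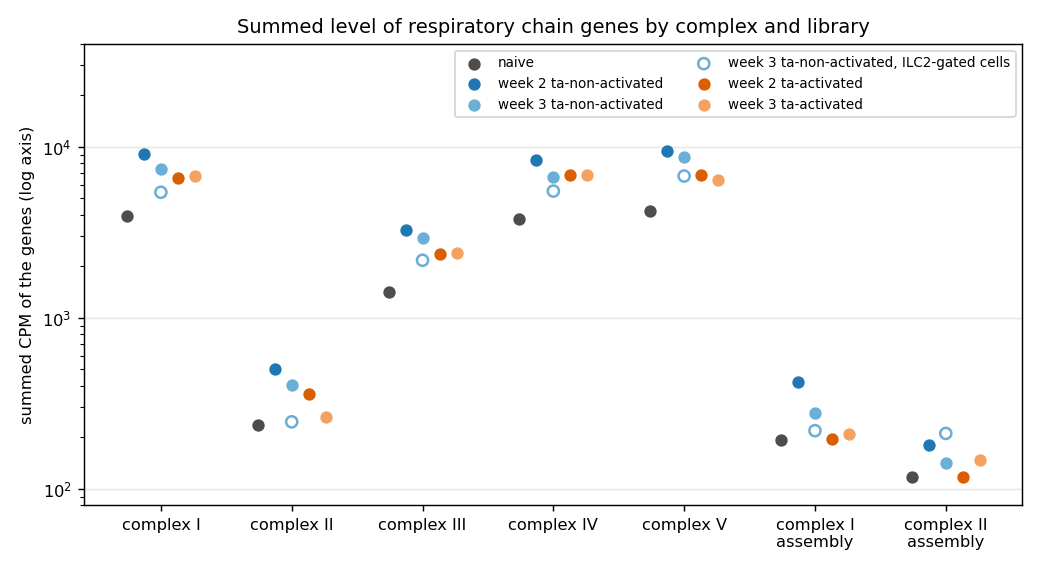
Summed CPM (log axis) of the genes of each respiratory complex and of the assembly factor lists, 1 point per library, with the ILC2-gated cells of the week 3 ta-non-activated library as an open circle. Poisson intervals are not drawn. In complexes I to V the naïve library is lowest and the week 2 ta-non-activated library highest, and the open circles lie below the filled week 3 points.

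In each of the 5 complexes the naïve library was lowest and week 2 fresh cells highest. Complex I (NADH dehydrogenase) had 3923 CPM in naïve cells, 9038 in week 2 and 7445 in week 3 ta-non-activated cells (5428 gated), and 6615 and 6757 in week 2 and week 3 ta-activated cells. Complex II (succinate dehydrogenase) was the smallest complex by sum, with 236 CPM naïve, 501 and 407 ta-non-activated (247 gated in week 3) and 361 and 263 ta-activated. Complex III (the cytochrome bc1 complex) had 1408 CPM naïve, 3275 and 2941 ta-non-activated (2172 gated) and 2353 and 2381 ta-activated. These 3 complexes shared the low naïve and high week 2 fresh values. Complex IV (cytochrome c oxidase) had 3767 CPM naïve, 8409 and 6663 ta-non-activated (5517 gated) and 6885 and 6852 ta-activated. Complex V had 4242 CPM naïve, 9496 and 8691 ta-non-activated (6754 gated) and 6850.3 and 6436 ta-activated. Only in complex IV did the ta-activated libraries lie above the lower, week 3, ta-non-activated value when all kept cells were used, and in gated cells this was also the case in complexes I, II and III.

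The proportions between complexes varied less than the sums. Of the UMIs of all subunits, complex I took 28.5% to 29.8% across the 5 libraries, complex III 10.2% to 11.2% and complex II 1.16% to 1.74%. Complex IV ranged from 25.5% in week 3 ta-non-activated to 30.2% in week 3 ta-activated cells, and complex V from 28.4% in week 3 ta-activated to 33.2% in week 3 ta-non-activated cells. In the gated cells of that library complex I took 27.0%, complex II 1.23%, complex III 10.8%, complex IV 27.4% and complex V 33.6%. The order of the 89 genes with a mean of at least 10 CPM was also much alike between any 2 libraries, with Spearman's rho across genes from 0.88 (naïve against week 2 ta-non-activated) to 0.99 (the ta-activated libraries), where genes are not independent replicates and ambient RNA and base composition are shared. The 8 genes below 10 CPM were 7 rare isoforms of complex IV and *Atp5s*.

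The first comparison asks how fresh ILC2s of tumour-bearing mice differ from naïve ones. With 1 naïve library, no test was run, and a gene was counted as different when its CPM (with 1 CPM added) differed 2-fold or more, among the 7685 genes with a mean of at least 10 CPM. In week 2, 84 of the 89 members were higher than in naïve cells, 50 of them 2-fold or more. By that much, 22.5% of all genes tested were higher, and 39.7% of genes with under 10 kb of intron. Just 1 member, *Cox7a2l*, was 2-fold or more lower, where 30.2% of all genes and 10.8% of genes with under 10 kb of intron were. The median log2 ratio of the members was 1.09, against -0.10 over all genes tested and 0.68 over genes with under 10 kb of intron. In week 3, kept cells had 41 members 2-fold or more higher (18.7% of all genes) and 0 lower (26.3% of all genes), with a median of 0.92. Of genes with under 10 kb of intron, 32.8% were higher and 8.51% lower by that much. In week 3 gated cells, 5 members were 2-fold or more higher (2.68% of all genes) and 1, *Cox6b2*, lower (22.4% of all genes). The naïve level of *Cox6b2*, 1.20 CPM, is below the 1.41 CPM that its 0 UMIs in gated cells allow, so that no direction can be read from this call. Of genes with under 10 kb of intron, 6.62% were 2-fold or more higher in these gated cells and 3.19% lower. The share of members that were higher, 5.62%, was below that. The median of the members was 0.53 against -0.18 over all genes and 0.33 over genes with short introns.

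**Figure D2:**
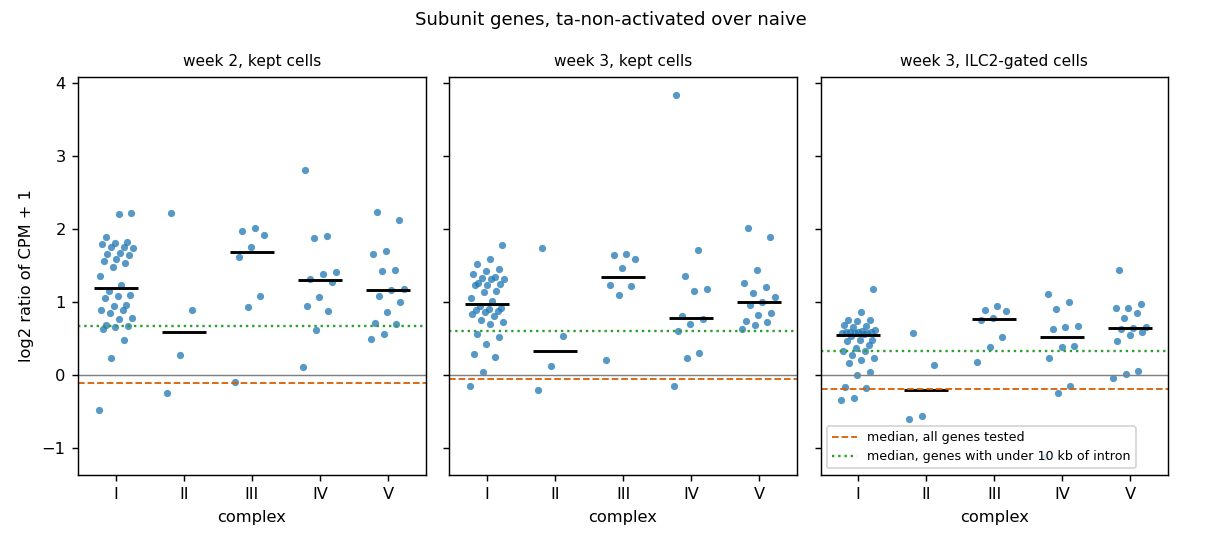
Log2 ratio of CPM + 1 of each subunit gene with a mean of at least 10 CPM, ta-non-activated over naïve, by complex (points, with the median of each complex as a black bar). The dashed line is the median of all genes tested and the dotted line that of genes with under 10 kb of intron. In week 2 the medians of complexes I, III, IV and V are at or above 1.16, and in week 3 gated cells they lie between 0.52 and 0.77.

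Intron length moved with the naïve ratio. Over all 7684 tested genes with an annotation, Spearman's rho of the week 2 log2 ratio with summed intron length was -0.54, and the median ratio ran from 0.57 for genes with under 1 kb of intron to -2.52 for those with 100 kb or more. Respiratory chain genes are short: their median was 5537 bases of intron, and 76.4% had under 10 kb, against 19676 bases and 33.0% over all tested genes. Within the members rho was -0.14. In bins of like length, the week 2 medians were 1.33 for the 42 members and 0.69 for the 1459 genes with 3 to 10 kb. With 10 to 30 kb they were 0.97 for the 16 members and 0.19 for the 2238 genes. With 1 to 3 kb the gap was smaller, at 0.89 for the 17 members and 0.74 for the 572 genes. In week 3 gated cells the medians of members and of all genes were 0.47 and 0.26 with 3 to 10 kb. They were 0.25 and -0.08 with 10 to 30 kb, and 0.65 and 0.38 with 1 to 3 kb. With the total of genes with under 10 kb of intron as the denominator, the summed members were 0.72 higher on the log2 scale in week 2 than in naïve cells, in place of 1.14. In week 3 the same denominator gave 0.51 in place of 0.91, and 0.12 in gated cells. The naïve matrix also names another version of Cell Ranger than the other 4. The part of the version or of intron length in the naïve ratio was not tested.

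**Figure D3:**
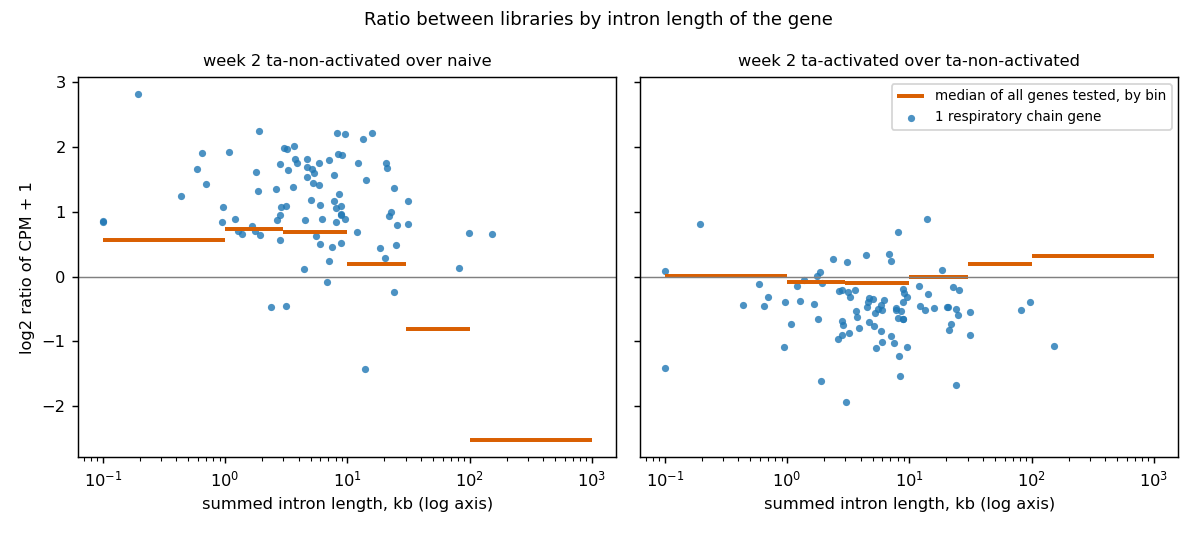
Log2 ratio of CPM + 1 against the summed intron length of a gene (log axis, genes without introns drawn at 0.1 kb) for week 2 ta-non-activated over naïve (left) and week 2 ta-activated over ta-non-activated (right). Points are single respiratory chain genes and bars the median of all genes tested in each length bin. On the left the bars run from 0.57 to -2.52 with length, while on the right they stay between -0.10 and 0.32.

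In complex I, 35 of 36 genes were higher in week 2 ta-non-activated than in naïve cells, 22 of them 2-fold or more. By that much, 22.5% of all genes tested and 39.7% of genes with under 10 kb of intron were higher. *Ndufab1*, the mitochondrial acyl carrier protein that also serves fatty acid and lipoic acid synthesis, had 89.8 CPM in naïve cells, 418 in week 2 and 311 in week 3 ta-non-activated cells (152 gated), and 197 and 185 in ta-activated cells of weeks 2 and 3. Its log2 ratio over naïve was 2.2 in week 2 and 0.76 in week 3 gated cells. *Ndufb6*, an accessory subunit of the membrane arm, had 58.5 CPM naïve, 277 and 139.6 ta-non-activated (84.8 gated) and 118 and 105 ta-activated. Both genes were lowest in the naïve library and highest in week 2 fresh cells. The 1 exception among the 36 was *Ndufa6*, an accessory subunit of the LYR-motif family, with 186 CPM naïve, 134 and 168 ta-non-activated (149.5 gated) and 161 and 199.8 ta-activated. *Ndufa13* (also called GRIM-19, named for its link to retinoid and interferon-induced cell death) varied less, with 314 CPM naïve, 370.3 and 324 ta-non-activated (395 gated), and its highest levels, 438 and 502, in ta-activated cells. Its locus overlaps *Yjefn3* on the same strand, so that its counts may be shared. *Ndufa2* and *Ndufb9* were the other genes of highest mean level in complex I, with 246 and 144 CPM in naïve and 421 and 423 CPM in week 2 ta-non-activated cells.

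In complex II, 3 of 4 genes were higher in week 2 ta-non-activated than in naïve cells, and 2 of 4 in week 3 gated cells. *Sdhb*, the iron-sulfur subunit, had 62.8 CPM naïve, 295 in week 2 and 213 in week 3 ta-non-activated cells (93.8 gated), and 211 and 142 in ta-activated cells. *Sdha*, the flavoprotein that holds the active site, had 86.4 CPM naïve, 72.7 and 94.1 ta-non-activated (95.6 gated), and the lowest values, 51.0 and 53.7, in ta-activated cells. *Sdhb* and *Sdha* thus differed in opposite ways from naïve cells in week 2, by log2 2.22 and -0.25. Among the membrane anchors, *Sdhc* had 45.5 CPM naïve and 55.6 in week 2 ta-non-activated cells, and *Sdhd* 41.1 and 77 CPM. In week 3 gated cells both anchors were below naïve, at 29.5 and 27.7 CPM.

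In complex III, 7 of 8 genes were higher in week 2 ta-non-activated than in naïve cells. Of these, 6 were so 2-fold or more (22.5% of all genes, 39.7% of genes with short introns). In week 3 gated cells 8 of 8 were higher, 0 of them 2-fold (2.68% of all genes, 6.62% of genes with short introns). *Uqcrfs1*, the Rieske iron-sulfur protein, had 73.4 CPM naïve, 299.6 and 224 ta-non-activated (141 gated) and 206 and 130.3 ta-activated. *Uqcr11*, a small subunit, had 129 CPM naïve, 509 and 410.0 ta-non-activated (241 gated) and 279 and 236 ta-activated. Both followed the common pattern. *Uqcrh*, the hinge protein that helps cytochrome c1 meet cytochrome c, did not: it had the highest naïve level of the complex, 591 CPM, with 554 in week 2 and 683 in week 3 ta-non-activated cells (775 gated) and 709 and 823 in ta-activated cells. *Uqcrq* and *Uqcr10* came next in mean level, from 158 and 171 CPM in naïve to 601 and 526 CPM in week 2 ta-non-activated cells. The core proteins *Uqcrc1* and *Uqcrc2* were at lower levels, 56.5 and 80.7 CPM in naïve and 121 and 155 CPM in week 2 ta-non-activated cells.

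In complex IV, 12 of 12 tested genes were higher in week 2 ta-non-activated than in naïve cells. Of these, 8 were so 2-fold or more (22.5% of all genes, 39.7% of genes with short introns). *Cox8a*, a small membrane subunit and the member with the highest mean level of all 97, had 426 CPM naïve, 1067 and 947 ta-non-activated (854 gated) and 1120.0 and 1082 ta-activated. *Cox5b*, a subunit on the matrix side, had 181 CPM naïve, 680.4 and 595 ta-non-activated (389 gated) and 499 and 461 ta-activated. For both genes the naïve value lay below all others, gated cells included. *Cox4i1*, the subunit at which the enzyme is regulated by ATP, varied less, with 544 CPM naïve, 590.4 and 490.2 ta-non-activated (459.9 gated) and 740.3 and 761 ta-activated. The annotation holds a read-through gene on the same strand over *Cox4i1*, so its counts may be incomplete. *Cox5a*, the partner of *Cox5b* at the matrix face, had 221 CPM naïve and 818 in week 2 ta-non-activated cells (354 in week 3 gated cells), and *Cox6a1* 177 and 326 CPM (209). *Cox7c* and *Cox6c* reached 972 and 918 CPM at their highest, in week 3 and week 2 ta-non-activated cells. *Cox7b* had 279 CPM naïve and 429 in week 2 ta-non-activated cells, and 252 in week 3 gated cells.

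All 15 genes of complex V were higher in week 2 ta-non-activated than in naïve cells. Of these, 10 were so 2-fold or more (22.5% of all genes, 39.7% of genes with short introns). The 3 genes for the c subunit, which forms the rotor ring and has the same mature protein from each gene, differed in their ratios to naïve. *Atp5g1* had 191 CPM naïve, 910.1 and 522 ta-non-activated (300.0 gated) and 297 and 241 ta-activated. *Atp5g2* had 402 CPM naïve, 901 and 882 ta-non-activated (757 gated) and 629 and 505 ta-activated. *Atp5g3* had 149.7 CPM naïve, 403 and 361 ta-non-activated (233 gated) and 325 and 281 ta-activated. *Atp5g1* was level with *Atp5g2* in week 2 fresh cells and below it in the other 4 libraries. *Atp5f1*, the b subunit of the peripheral stalk, had 159 CPM naïve, 697 and 592 ta-non-activated (288 gated) and 486 and 418 ta-activated. *Atp5k*, the e subunit that helps the enzyme dimerize, was the member with the largest ratio to naïve in week 3 gated cells, 1.44 on the log2 scale, from 95.8 to 262 CPM. *Atp5e*, the epsilon subunit, was the most abundant gene of the complex, from 553 CPM in naïve to 979.6 CPM in fresh cells of week 3 (1051 gated). *Atp5h*, a peripheral stalk subunit, differed less, from 487 to 722 CPM (736 in week 3 gated cells). The catalytic beta subunit *Atp5b* had 307 CPM naïve, 651 in week 2 and 313 in week 3 gated cells and 688 in the T-marker cells of week 3, so that gated cells of that week were level with naïve cells.

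*Cox7a2l*, known for helping to join complexes III and IV into supercomplexes (not measured in these mice), went the other way. Its level was 358 CPM in naïve cells, 133 in week 2 and 226 in week 3 ta-non-activated cells (226 gated), and 247 and 296 in ta-activated cells. It was highest where the sum of the subunits was lowest and lowest where that sum was highest, with Pearson's r of -0.86 over the 5 libraries between its log2 level and the log2 sum of members, given as a description. For comparison, the median r of the 89 members with that sum, of which each is a part, was 0.91. *Cox7a2l* was the lowest of them, followed by *Atp5sl* at -0.68 and *Ndufa6* at -0.65. The introns of *Cox7a2l* sum to 13935 bases, above the median of the members.

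The weeks were set side by side in fresh and in cultured cells. In kept fresh cells, 1 member, *Ndufaf4*, was 2-fold or more lower in week 3 than in week 2 (11.4% of all genes tested) and 1, *Cox6b2*, higher (16.3% of all genes), with a median of -0.23 against 0.04 over all genes. In gated fresh cells, 33 of 89 members were 2-fold or more lower in week 3 than in week 2 (21.4% of all genes) and 0 were higher by that much (16.7% of all genes). Their median was -0.77 against -0.10 over all genes and -0.39 over genes with short introns. Of complex I, 17 of 36 genes were among these. Among the lower ones were *Ndufb6* with -1.70, *Sdhb* with -1.65 and *Atp5g1* with -1.60, while *Uqcrh* (0.48), *Ndufa13* (0.095) and *Atp5e* (0.22) were no lower. The gated week 3 cells had a median of 2825 UMIs, against 16090 UMIs in kept week 2 cells. In kept cultured cells 0 members were 2-fold higher in week 3 (2.67% of all genes) and 0 lower (1.98% of all genes). In gated cultured cells 1, *Sdhaf1*, was higher (2.65% of all genes) and 0 lower (1.95% of all genes). The median in kept cells was -0.03 against 0.08 over all genes. The largest difference there among subunits was that of *Sdhd*, -0.87.

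Culture with IL-2, IL-33 and TSLP was the comparison with 2 libraries on each side. In edgeR's quasi-likelihood test on summed counts with Benjamini-Hochberg adjustment, 0 of 93 members tested passed an adjusted p of 0.05, and 0 of 12643 genes did (0% called). At an unadjusted p under 0.05 there were 13 members and 2120 genes. DESeq2 called 1047 of 18230 genes tested and 2 of 95 members, *Ndufaf6* and *Atp5a1*, both lower in ta-activated cells. Without the week 3 ta-non-activated library, edgeR's median log2 fold change was -0.73 for the members and 0.12 for all genes. Without the week 2 ta-non-activated library these medians were -0.20 and 0.11. In these fits the fresh group is 1 library, assumed to vary as the cultured libraries do, so calls are not given. The sum of all members was 29144 ± 3294 CPM (SD, n = 2) in ta-non-activated and 23506 ± 199 CPM in ta-activated cells, with p = 0.333 in an exact two-sided permutation test, the smallest that 2 libraries against 2 can give. In gated cells the sums were 26137 ± 7552 and 23495 ± 181 CPM, with an exact p of 1. Libraries of a group come from different weeks and different mice, so the spread between them holds both.

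In kept cells most members were lower after culture in both weeks. In gated week 3 cells most were higher, as were most of all genes tested. In week 2, 77 of 89 members were lower after culture than in fresh cells. Of these, 12 were 2-fold or more lower (9.51% of all genes tested) and 0 were higher by that much (14.2% of all genes). The share lower by that much, 13.5%, was close to the 13.4% of genes with under 10 kb of intron, of which 13.9% were higher. The median was -0.47 against 0.07 over all genes and -0.07 over genes with short introns. In week 3 kept cells, 67 were lower and 22 higher, with a median of -0.33. There 7 were 2-fold or more lower (14.0% of all genes, 17.1% of genes with short introns). By that much 0 were higher (18.1% of all genes, 17.6% of genes with short introns). In week 3 gated cells, 60 of 89 were higher and 29 lower, with 0 that were 2-fold or more lower (9.28% of all genes) and 2, *Cox6b2* and *Cox7a2*, 2-fold higher (20.7% of all genes), *Cox6b2* against 0 UMIs. Of all 7685 genes tested, 4844 were higher there and 2840 lower. The median of the members there was 0.21, below the 0.27 of all genes tested and the 0.31 of genes with short introns. Of the latter, 8.90% were 2-fold or more lower and 23.0% higher. With edgeR's TMM library sizes in place of plain totals, the sum of members in gated week 3 cells differed by 0.05 on the log2 scale, and by -0.62 in week 2. The kept week 3 fresh cells include the T-marker cells with their 28609 CPM of these genes, and the gated values are those without them. With 1 library for each week and group, the difference between the weeks was not tested.

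**Figure D4:**
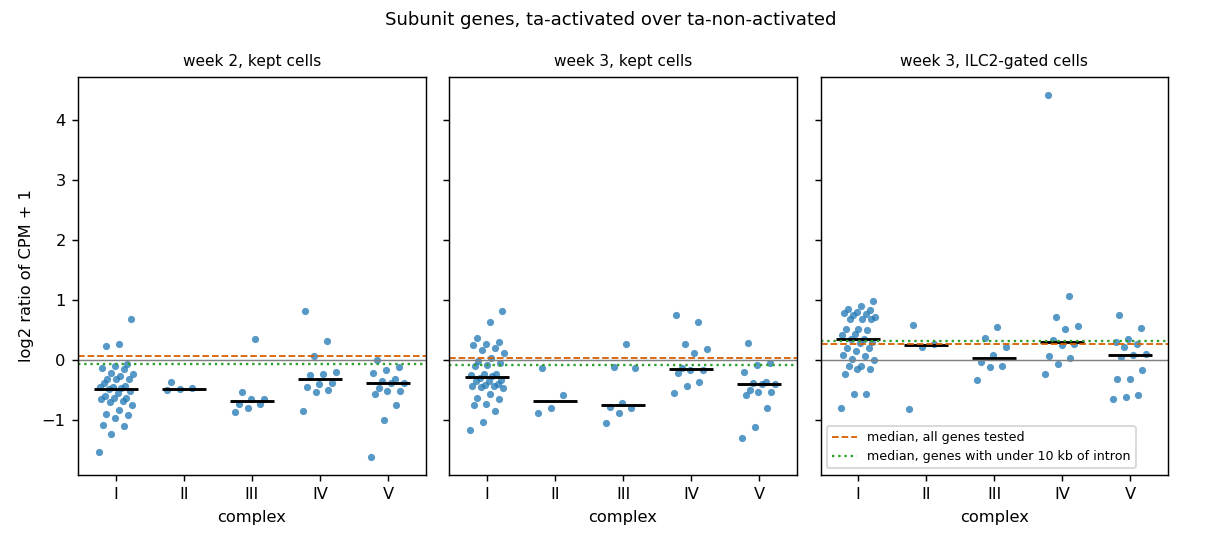
Log2 ratio of CPM + 1 of each subunit gene with a mean of at least 10 CPM, ta-activated over ta-non-activated, by complex, with medians as black bars and the medians of all genes tested (dashed) and of genes with under 10 kb of intron (dotted). Most points lie below 0 in both weeks of kept cells, and around the median of all genes in week 3 gated cells.

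Over the 4 tumour libraries, both ta-activated values lay below both ta-non-activated values in 60 of 89 members (24.6% of all genes tested) and above them in 8 (29.6% of all genes). With gated cells these counts were 23 below (13.7% of all genes) and 10 above (28.6% of all genes). *Atp5g1* had the largest mean ratio to the low side among subunits. Its ratios were -1.61 in week 2, -1.11 in week 3 kept and -0.32 in week 3 gated cells, with an edgeR log2 fold change of -1.55 (SE 0.49, adjusted p = 0.262). *Atp5a1*, the alpha subunit of the catalytic head, had 381 and 449 CPM ta-non-activated (279 gated) and 189 and 182 ta-activated, below its naïve 269 CPM. Its groups did not overlap in kept or in gated cells, and edgeR gave -1.26 (SE 0.32, adjusted p = 0.252). The other c-subunit gene of high level, *Atp5g2*, also lay lower after culture in both weeks, gated cells included.

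Lower values in ta-activated cells were also found for some subunits of complex I. *Ndufv1*, which binds NADH and the flavin, had 94.3 and 92.3 CPM ta-non-activated (78.3 gated) and 50.2 and 44.5 ta-activated. *Ndufs8*, an iron-sulfur core subunit, had 150.1 and 149 CPM ta-non-activated (98.0 gated) and 76.5 and 66.0 ta-activated. Neither overlapped between groups. *Ndufa5*, an accessory subunit of the matrix arm, had 305 and 206 CPM ta-non-activated (122 gated) and 105 and 114 ta-activated. Their edgeR log2 fold changes were -1.08, -1.17 and -1.36, with adjusted p of 0.259, 0.254 and 0.261. In complex III, *Uqcrc2* and *Uqcrb* had week 2 ratios of -0.73 and -0.80, and in complex IV *Ndufa4* had -0.84.

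A few members were higher after culture in both weeks and in gated cells. *Ndufv3*, an accessory subunit beside the NADH site, had 219 and 201 CPM ta-non-activated (222 gated) and 353 and 356 ta-activated, the opposite of *Ndufv1*. Its edgeR log2 fold change was 0.64 (SE 0.34, adjusted p = 0.396). *Cox4i1*, *Ndufa13*, *Uqcrh* and *Cox7a2l* were higher in both weeks as well, with week 2 ratios of 0.33, 0.24, 0.35 and 0.89. The highest ratios of complex V were 0.009 in week 2 and -0.091 in week 3 for *Atp5l* and -0.39 and 0.29 for *Atp5j*. *Cox7a2* had 819 and 513 CPM ta-non-activated (413 gated) and 711 and 864 ta-activated, so that it lay lower after culture in week 2 and higher in week 3.

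Assembly factors build the complexes and are not part of the finished enzyme. The 8 factors of complex I summed to 193 CPM naïve, 422 and 279 ta-non-activated (219 gated) and 196 and 209 ta-activated, and 8 of 8 were higher in week 2 ta-non-activated than in naïve cells. After culture 7 of 8 were lower in each week of kept cells, 5 of them 2-fold or more in week 2, where 9.51% of all genes were. In week 3 gated cells 5 were lower and 3 higher, 0 of them 2-fold, with a median of -0.13. *Ndufaf4* had 28.8 CPM naïve, 117 and 49.0 ta-non-activated (35.6 gated) and 29.8 and 30.5 ta-activated, so that it was high in 1 library, week 2 fresh cells. *Ndufaf6* had 10.2 CPM naïve, 27.9 and 21.8 ta-non-activated (5.16 gated) and 8.06 and 8.67 ta-activated, and the smallest adjusted p of all members, 0.243 in edgeR, for a log2 fold change of -1.70 (SE 0.38). In gated week 3 cells it was lower than after culture. *Ndufaf3* was the 1 factor that was higher after culture in both weeks, by 0.079 and 0.12. The 4 factors of complex II summed to 117 CPM naïve, 181 and 141 ta-non-activated (211 gated) and 118 and 147 ta-activated. The highest mean level among them was that of *Sdhaf1*, with 88.7 CPM in week 2 and 53.2 CPM in week 3 fresh cells (133 gated), and 32.8 and 66.0 CPM after culture.

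Complex IV has paired subunit isoforms of which 1 is widespread and the other is kept to muscle, testis or lung. The widespread ones took nearly all UMIs. *Cox6b2*, known from testis, was the exception that reached a mean of 10 CPM. Its 39 UMIs in naïve cells (1.20 CPM) compared with 482 in week 2 fresh cells (14.5 CPM), 1505 in week 2 (26.2 CPM) and 1261 in week 3 cultured cells (20.4 CPM). In the week 3 fresh library all 286 of its UMIs lay in the 871 T-marker cells and 0 in the 713 gated cells, which allows up to 1.41 CPM there. Its paralogue *Cox6b1* had 323 to 784 CPM in the 5 libraries. *Cox4i2*, the isoform known from lung and oxygen sensing, had 6, 3, 1, 42 and 56 UMIs in naïve, week 2 fresh, week 3 fresh, week 2 cultured and week 3 cultured cells, and edgeR gave 2.92 on the log2 scale for culture (SE 0.77, adjusted p = 0.252). In UMIs, all 3 of *Cox4i2*, *Cox6b2* and *Cox7a1* were most counted in cultured libraries, which are also the deepest, so that UMIs alone give no difference in level. The edgeR log2 fold changes for culture in kept cells were 0.005 (SE 0.42) for *Cox6b2* and 0.30 (SE 0.46) for *Cox7a1*. In gated cells they were 1.32 and 0.98. *Cox7a1*, the muscle form, had 44, 109, 61, 300 and 450 UMIs in the same order, 57 of the 61 in T-marker cells. *Cox6a2* had 6, 3, 22, 46 and 10 UMIs, the 22 all in T-marker cells. *Ndufa4l2*, known as induced by low oxygen, had 3, 1, 0, 26 and 2 UMIs, and the 26 came from 6 cells. *Cox8b* and *Cox8c* had 1 and 6 UMIs in all, and *Cox7b2* was at 0 in every library, which allows 0.0485 to 0.319 CPM by 3 counts.

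The mitochondrial genome encodes the other 13 subunits, and their transcripts did not follow the nuclear ones. They summed to 23376 CPM in naïve cells, 16573 and 30411 CPM in week 2 and week 3 ta-non-activated cells (31955 gated) and 31293 and 33009 CPM in ta-activated cells. The ratio of the 97 nuclear genes to these was 0.610 in naïve cells, 1.90 and 0.882 in ta-non-activated cells (0.651 gated in week 3) and 0.756 and 0.708 in ta-activated cells. Week 2 fresh cells thus stood apart with the highest nuclear and the lowest mitochondrial sum. Of the 13, 11 were higher after culture in week 2, with a median of 0.76. In week 3, 8 were higher and 5 lower, with a median of 0.23 (0.15 gated). There *mt-Nd4l* and *mt-Atp8* had ratios of -2.57 and -1.23, while *mt-Nd4* and *mt-Atp6* had -0.76 and 0.21. In fresh cells, 13 of 13 mitochondrial genes were higher in week 3 than in week 2, gated or not. *mt-Co1*, the catalytic subunit of complex IV, had 4083 CPM naïve, 2382 and 5389 ta-non-activated (6141 gated) and 5496 and 6663 ta-activated. The filter at 5% mitochondrial counts bounds these sums from above. With all barcodes the ratio ran from 0.561 in naïve to 1.88 in week 2 ta-non-activated cells.

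Genes of neighbouring pathways were counted from fixed lists. Of 19 genes of the TCA cycle and pyruvate dehydrogenase, 17 were higher in week 2 ta-non-activated than in naïve cells (median 0.78). So were 3648 of all 7685 genes tested (median -0.10) and 1793 of 2539 genes with under 10 kb of intron (median 0.68). After culture 16 of the 19 were lower in week 2 (median -0.71) and 17 in week 3 kept cells, with 10 lower and 9 higher in week 3 gated cells. Of all genes tested, 3538, 3729 and 2840 were lower in these 3 comparisons. *Mpc1*, which forms the mitochondrial pyruvate carrier with *Mpc2*, had 109 CPM naïve, 476 and 165 ta-non-activated (149 gated) and 188 and 147 ta-activated. *Idh3a*, a rate-setting dehydrogenase of the cycle, had 31.2 CPM naïve, 145 and 89.0 ta-non-activated (41.3 gated) and 58.2 and 41.2 ta-activated. Both shared the single high library of week 2 fresh cells. Of 49 tested genes among carriers, cytochrome c, oxidase assembly factors and other respiratory genes outside the prefixes, 41 were higher in week 2 ta-non-activated than in naïve cells (median 1.03) and 40 were lower after culture in week 2 (median -0.38), 36 in week 3 kept cells (median -0.19) and 22 in week 3 gated cells, where 27 were higher (median 0.16). Regulators of mitochondrial biogenesis did not share this, with 4 of 12 tested higher and 8 lower in week 2 ta-non-activated than in naïve cells. Their median was -0.16, against -0.10 over all genes tested and -0.57 over genes with 10 kb or more of intron. The part of intron length in these ratios was not tested. *Nrf1* itself had 72.0 CPM naïve and 17.4 in week 2 ta-non-activated cells, *Tfam*, which packs and copies mitochondrial DNA, 21.3 and 45.4, and *Myc* 24.4 and 121. *Ppargc1a*, the co-activator PGC-1alpha, had 0.895 CPM naïve and was at 0 in both fresh tumour libraries, where 3 counts would be 0.0903 and 0.319 CPM.

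Cycling cells were called by at least 2 of 12 cell-cycle genes after each cell was thinned to 2000 UMIs, and made up 1.04% of naïve, 10.9% and 13.2% of ta-non-activated and 25.2% and 18.7% of ta-activated cells. In the week 3 ta-non-activated library 1.59% of gated and 21.7% of T-marker cells were cycling. Summed members were higher in cycling than in other cells of the same library in 5 of 5 libraries. The levels were 18695 against 14236 CPM in naïve cells, 32226 against 31316 CPM and 33972 against 23537 CPM in ta-non-activated cells of weeks 2 and 3, and 25424 against 22603 CPM and 24779 against 22804 CPM in ta-activated cells. The mean log2 ratio was 0.25 ± 0.20 (SD, n = 5), with p = 0.063 in an exact sign-flip permutation test, the smallest that 5 pairs can give. In gated cells it was 0.23 ± 0.18 with the same p, and the week 3 fresh value then rests on 10 cycling cells. The difference was smallest in week 2 fresh cells, where the level was high in both classes, and among cells without cycling calls week 2 fresh cells were still the highest and naïve cells the lowest, while the cultured libraries changed places. Cycling cells were also the deeper ones, with medians of 7304 against 4600 UMIs in naïve and 24125 against 11306 UMIs in week 2 ta-activated cells, and the part of depth in the difference was not tested.

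**Figure D5:**
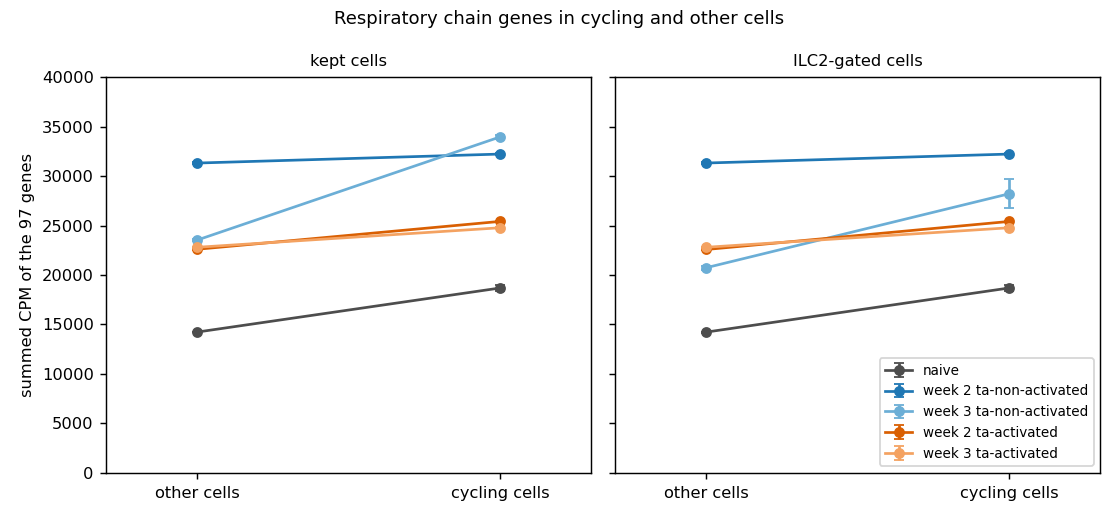
Summed CPM of the 97 genes in cycling and other cells of each library, for kept cells (left) and ILC2-gated cells (right), with Poisson 95% intervals, most of them smaller than the points. Each of the 5 lines goes up from other to cycling cells, least in week 2 ta-non-activated cells (31316 to 32226 CPM).

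Among gated cells, 37 of 89 members were higher in cycling cells in each of the 5 libraries (18.6% of all genes tested) and 2, *Uqcrh* and *Sdhaf1*, lower in each (12% of all genes). *Ndufab1* had the largest mean log2 ratio, 0.71 ± 0.46 (SD, n = 5), followed by the assembly factor *Ndufaf6* at 0.69 ± 0.62. *Sdhd*, *Atp5g3*, *Ndufv1* and *Cox5a* came next with 0.64, 0.61, 0.60 and 0.58. The week 3 fresh values of *Ndufab1* and *Ndufaf6*, 1.44 and 1.69, were the largest of their 5. They rest on 10 cycling cells, in which *Ndufaf6* had few UMIs, and the counts over 5 libraries include the same 10 cells. *Uqcrh* had a mean of -0.27 ± 0.22. It therefore stood apart from the subunits of its complex here as well as between libraries.

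Per cell, the members were spread over most cells. After thinning to 2000 UMIs, a cell held a median of 29 member UMIs in the naïve library (10th to 90th percentile 17 to 43), 63 in week 2 (50 to 75) and 45 in week 3 ta-non-activated cells (32 to 66), or 40 in gated ones, and 46 in each ta-activated library. The 10th percentile of week 2 fresh cells was above the 90th of naïve cells. The variance over the mean of the counts per cell was 1.61 in week 2 ta-non-activated cells, against 3.79 in naïve, 3.71 in week 3 ta-non-activated (2.09 gated) and 2.36 and 2.03 in ta-activated cells, where pure sampling of 1 common share would give about 1. Cells with fewer than 2000 UMIs were left out, which left 1495 to 6147 cells a library (627 gated cells in week 3).

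Among the genes outside all lists whose log2 level over the 5 libraries was most like that of the summed members were *2410015M20Rik*, *Nudt5*, *Mcm3*, *Rbm8a*, *Eif4b*, *Gadd45gip1*, *Glrx5* and *Mrpl54*, with Pearson's r from 0.995 to 0.998 among 2810 candidates. *Mcm3*, a part of the DNA replication helicase, ranged from 17.8 CPM in naïve to 158 CPM in week 2 fresh cells. *Gadd45gip1* and *Mrpl54* encode parts of the mitochondrial ribosome and *Glrx5* a glutaredoxin of iron-sulfur cluster assembly, with 40.2, 60.4 and 39.0 CPM in naïve and 163, 203 and 173 CPM in week 2 fresh cells. With 5 points, high values of r are easily met.

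Promoters were looked up because most members were higher and lower together across libraries. RefSeq promoters (GRCm38.p6, 250 bases before to 50 after the start) were matched for 78 of the 97 genes. Letters searched on both strands were CGCATGCG, a core of the NRF-1 motif, CCGGAAG, a core of the ETS motif bound by GABP, and ATGGCGGC, a core of the YY1 motif, and none of the 3 contains another. NRF-1, GABP and YY1 are known regulators of respiratory genes. The NRF-1 core was in 10 of 78 member promoters (12.8%), 1.91% of all 27025 promoters and 4.77% of those of 6082 genes tested here. The ETS core was in 20 (25.6%), against 9.12% and 22.5%. The YY1 core was in 8 (10.3%), against 2.38% and 6.45%. The 75 tested members with a promoter were then split by each core. The 10 with the NRF-1 core had a median log2 ratio of week 2 ta-non-activated over naïve of 1.4 and the 65 without it 1.09. The same split gave 0.97 and 1.16 for the ETS core and 0.82 and 1.19 for the YY1 core, so that only for the NRF-1 core was the median higher with the letters than without. The naïve ratios ran from 0.71 (*Atp5l*) to 1.98 (*Ndufaf4*) with the NRF-1 core and from -1.43 (*Cox7a2l*) to 2.81 (*Cox6b2*) without it. For culture in week 2 the NRF-1 medians were -0.48 and -0.47. The part of these letters in the ratios was not tested. Of the 5 tested members that were lower in week 2 fresh tumour than in naïve cells, 2 are shown. *Uqcrh* was nearly level (log2 ratio -0.09) and *Cox7a2l* lower (-1.43). *Ndufa6* (-0.47) and *Sdha* (-0.25) were also lower and are not shown. Given as examples are the 120 bases before the start, with matches in capitals. They come from 3 of the 10 members with the NRF-1 core, and from *Uqcrh* and *Cox7a2l*:
Atp5k, chr5:108434400-108434519, - strand: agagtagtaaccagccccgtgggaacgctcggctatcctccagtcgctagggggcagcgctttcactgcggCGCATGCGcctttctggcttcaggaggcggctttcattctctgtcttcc
Ndufa11, chr17:56717642-56717761, + strand: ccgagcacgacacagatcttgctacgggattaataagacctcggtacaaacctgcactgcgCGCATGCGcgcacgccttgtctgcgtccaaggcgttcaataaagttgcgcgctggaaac
Atp5g2, chr15:102671048-102671167, - strand: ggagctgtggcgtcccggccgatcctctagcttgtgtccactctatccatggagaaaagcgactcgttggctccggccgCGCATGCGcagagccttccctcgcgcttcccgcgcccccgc
Uqcrh, chr4:116075071-116075190, - strand: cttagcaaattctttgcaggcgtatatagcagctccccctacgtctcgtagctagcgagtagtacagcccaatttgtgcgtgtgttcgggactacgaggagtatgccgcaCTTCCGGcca
Cox7a2l, chr17:83514334-83514453, - strand: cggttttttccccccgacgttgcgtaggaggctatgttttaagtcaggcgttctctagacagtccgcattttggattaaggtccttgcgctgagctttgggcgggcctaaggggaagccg
The first 3 hold the NRF-1 core, *Uqcrh* the ETS core on the reverse strand, and *Cox7a2l* none of the searched letters in this window. *Ndufa11*, a membrane-arm subunit of complex I, had 84.8 CPM naïve, 267 and 178 ta-non-activated (131 gated) and 215 and 215 ta-activated.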

How the data were processed

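The matrices hold whole-number UMI counts of each gene in each barcode as deposited by the authors, made per the file headers and labels with Cell Ranger (3.0.2, or 6.0.0 in the header of the naïve matrix) on GRCm38. Counts were summed over kept cells and divided by the total over 27726 common genes to give CPM, with 1 CPM added before log2 ratios. Library totals were 9910201 to 71126524 UMIs over 1838 to 6953 barcodes. The ta-activated and ta-non-activated groups, each of 2 libraries of pooled mice, were compared with edgeR 4.0.16 (quasi-likelihood, R 4.3.3) and, as an alternative, DESeq2 1.42.0. The replicate number of a library is its week, so that spread between replicates holds the week as well. Nothing states that same-week libraries share mice, and their deviations from the group means had r = -0.06 over 12643 genes. With 2 libraries a group, this r sets the week difference of fresh cells against that of cultured cells. The fresh difference also holds the T-marker cells of week 3, so r cannot decide whether mice are shared. Values with 1 library a side had no test. On simulated data with the dispersion of these libraries, edgeR recovered few of the changed genes at the smaller fold tested, so that 0 calls does not show equal levels. That fold was larger than the members' median edgeR log2 fold change of -0.49, and changes of the size of this median were not simulated. Alternatives changed the cell filter, denominator, normalization, gene filter, week block and libraries left out. The members and gene lists were chosen with earlier results of these data known. Genes with values were named by rule: per complex the 3 highest in mean CPM and the 2 at each end of the culture and naïve ratios, the isoform groups and the assembly factor lists. *Ndufv1*, *Uqcrc1*, *Atp5b*, *Ndufa11* and the genes named from other lists were chosen after their values were seen. Python 3.11.15 with NumPy 2.4.6, SciPy 1.17.1, pandas 2.3.3 and Matplotlib 3.10.9 was used. Some genes that the rule for the most alike genes would name are not reported here.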

Additional observations from a re-analysis of the deposited data

Results flagged for a closer look

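In some sums of complexes, the week 2 and week 3 pairs of libraries lay on opposite sides of 0 for ta-activated over ta-non-activated cells (log2 CPM ratio). Each week has 1 library a group, so the difference between weeks was not tested. In kept cells this held for complex IV, 0.040 in week 3 and -0.29 in week 2, and for the assembly factors of complex II, 0.060 and -0.62. In ILC2-gated cells it held for the sum of all 97 genes, 0.17 in week 3 and -0.41 in week 2, and for the 82 subunits, also 0.17 and -0.41. The median log2 ratio over all single genes tested was 0.27 in week 3 and 0.07 in week 2 gated cells. By complex, the gated week 3 and week 2 ratios were 0.32 and -0.45 for complex I, 0.096 and -0.47 for complex II, 0.13 and -0.48 for complex III, and 0.31 and -0.29 for complex IV. Complex V was lower after culture in both weeks. The gated week 3 ta-non-activated cells had a median of 2825 UMIs, fewer than any other set of cells compared, and their part in these signs was not tested.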

How the results depend on the processing

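For culture, DESeq2 called 1047 genes and 2 members in place of 0 and 0, and leaving out each library in turn gave 0 to 1646 genes and 0 to 4 members. With week as a replicate block 0 genes and 0 members were called, and the block changed no call. The mean log2 ratio of the summed members for culture was -0.31, with -0.12 in gated cells and -0.063 in gated cells over genes with under 10 kb of intron, a setting chosen after seeing the data. The week 2 ratio over naïve, 1.14, was 1.16 with all barcodes, 1.16 with a mitochondrial limit of 10%, 0.72 over genes with under 10 kb of intron, 1.23 without mitochondrial and ribosomal genes in the total, 1.44 with TMM, 1.11 as a mean over cells, 1.14 without *Cox8a* and 1.18 for subunits only. Gated cells with TMM or with short-intron genes, both added after seeing the data, gave 1.54 and 0.73. The week 3 ratio, 0.91, was in the same order of settings 0.51, 1.06, 0.96, 0.69, 0.90 and 0.95 from the short-intron total onward, 0.54 in gated cells, 0.73 without cycling cells, and 0.79 and 0.12 in gated cells with TMM or short-intron genes. All of these were above 0. The *Cox6b2* week 3 ratio over naïve turned from 3.83 to -1.11 in gated cells, where it had 0 UMIs. The cycling ratio stayed between 0.18 and 0.30 under its alternatives. The cause of these shifts was not tested, beyond the change each setting makes.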
